A study of Mus musculus with 3 samples.

Results

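The 10 genes described here encode the kinases that pass a Toll-like receptor signal on to NF-kappaB and to the interferon regulatory factors, with the scaffolds and adaptors that hold those kinases together. They were chosen by name and found by gene symbol in the annotation of the deposited tables, 10 of 55536 annotated genes: Chuk, Ikbkb, Ikbkg, Tbk1, Ikbke, Tank, Azi2, Map3k7, Map3k8 and Tab2. The measurements were total RNA-seq, after ribosomal RNA depletion, of nucleoplasmic RNA from primary macrophages grown from the bone marrow of C57BL/6J mice. The cells received lipid A, the TLR4 ligand within lipopolysaccharide, at 100 ng/ml over 12 h, were then left without it for 12 h, and met the same dose once more for 15 min. The labels give 1 group of 3 libraries, numbered as biological replicates 1 to 3. Sex and age were not collected, and all 3 libraries carry 1 donor identifier, so the spread below is that between these samples and may be technical. With no other group analysed here, no gene can be called induced or repressed.

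In resting cells NF-kappaB is held in the cytoplasm by inhibitor proteins of the IkB family. The IKK complex, made of the kinases IKK alpha (Chuk) and IKK beta (Ikbkb) and the regulatory subunit NEMO (Ikbkg), phosphorylates those inhibitors and so marks them for destruction, and IKK is itself switched on by TAK1 (Map3k7) bound to TAB proteins on ubiquitin chains. TBK1 and its relative IKK epsilon (Ikbke) are brought to active receptors by adaptors such as TANK and NAP1 (Azi2) and phosphorylate IRF3, the factor that turns on interferon beta. In macrophages TLR4 is known for using both branches. TPL2 (Map3k8) carries the signal from IKK to the ERK kinases.

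Summed over annotated genes, the expected counts, the authors' estimates of reads per gene, came to 23826101 in replicate 1, 19312032 in replicate 2 and 21730342 in replicate 3, and the 10 genes together held 0.163%, 0.158% and 0.174% of them. Replicate 2 was made from 500 ng of RNA and the others from 1 µg. All 8 macrophage markers checked (among them Csf1r, Adgre1 and Lyz2) were detected at mean levels of 44.6 to 1616 TPM, and 0 of 20 markers of T and NK cells, B cells, granulocytes, dendritic cells, fibroblasts and erythroid cells were, the highest mean being 0.727 TPM for S100a8. Mitochondrial mRNAs differed in their part of TPM, with 3.68% in replicate 1, 5.69% in replicate 2 and 1.87% in replicate 3, and their part in the values below was not tested. In RNA from many cells, fewer expressing cells and less RNA per cell cannot be told apart.

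The sequences shown first are those at which the annotated retained-intron transcripts of these genes leave the splicing pattern of the coding transcript, since such transcripts held about as much of the TPM of several members as the coding ones did. A retained-intron transcript is one that the annotation describes as keeping intron sequence that the coding transcripts of the gene splice out. Of the 28 such transcripts of these genes, 3 read across at least 1 whole intron of the main coding transcript and 25 cover introns of it only in part. Introns are numbered from the 5′ end of the main coding transcript. Each line gives 20 bases on either side of a splice site, 5′ to 3′, with the first or last bases of the intron, GT or AG, in capitals. Ikbke lies on the minus strand of chromosome 1, and its main coding transcript, Ikbke-201, has 21 introns. Ikbke-205 and Ikbke-207 read through the acceptor sites of introns 7 and 10, and Ikbke-206 reads all of introns 17, 18 and 19.
Ikbke-205, acceptor of intron 7: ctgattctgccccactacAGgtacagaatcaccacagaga
Ikbke-207, acceptor of intron 10: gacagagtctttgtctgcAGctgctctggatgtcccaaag
Ikbke-206, donor of intron 17: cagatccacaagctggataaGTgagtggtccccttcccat
Ikbke-206, acceptor of intron 17: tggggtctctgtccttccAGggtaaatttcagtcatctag
Ikbke-206, donor of intron 18: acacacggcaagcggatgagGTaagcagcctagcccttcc
Ikbke-206, acceptor of intron 18: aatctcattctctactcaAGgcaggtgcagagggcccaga
The matching stretches of the spliced coding transcript are set beside them, with the last base of one exon and the first of the next in capitals.
Ikbke-201, intron 7 removed: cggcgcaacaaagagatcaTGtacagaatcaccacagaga
Ikbke-201, intron 10 removed: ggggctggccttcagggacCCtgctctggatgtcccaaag
Ikbke-201, intron 17 removed: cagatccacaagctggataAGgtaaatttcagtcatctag
Ikbke-201, intron 18 removed: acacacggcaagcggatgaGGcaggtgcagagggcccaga
These windows lie at chr1:131272199-131272238 (intron 7), chr1:131270231-131270270 (intron 10), chr1:131259986-131260025 and chr1:131259264-131259303 (intron 17), and chr1:131259162-131259201 and chr1:131257978-131258017 (intron 18) of mm10, all on the minus strand, with the exon side coding.

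Annotated transcripts of Chuk, Ikbkb and Tbk1 read through the same kind of site at other places. Chuk, on the minus strand of chromosome 19, has transcripts that enter its intron 16 from both ends: Chuk-207 from the donor (chr19:44081926-44081965) and Chuk-205 from the acceptor (chr19:44078966-44079005). In Ikbkb, on the minus strand of chromosome 8, Ikbkb-211 reads the whole of introns 12 and 13, and the ends of intron 13, which is 510 bases long, are shown (chr8:22669587-22669626 and chr8:22669077-22669116). In Tbk1, on the minus strand of chromosome 10, Tbk1-207 keeps the end of intron 13 (chr10:121554005-121554044). GT and AG are again in capitals.
Chuk-207, donor of intron 16: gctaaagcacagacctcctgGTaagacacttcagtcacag
Chuk-205, acceptor of intron 16: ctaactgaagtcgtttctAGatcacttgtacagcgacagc
Ikbkb-211, donor of intron 13: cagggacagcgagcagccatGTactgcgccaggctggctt
Ikbkb-211, acceptor of intron 13: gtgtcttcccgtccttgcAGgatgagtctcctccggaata
Tbk1-207, acceptor of intron 13: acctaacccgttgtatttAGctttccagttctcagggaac

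All 10 members were detected, taking as detection a TPM that reached 1 in each of the 3 libraries, against 42.8% of the 22028 protein-coding genes. TPM is a level per transcript length, which the authors scaled to the same sum in every library, so that genes can be set side by side within a library. Ikbke stood alone at the top. Tbk1, Azi2, Tank, Map3k8, Tab2, Ikbkb and Chuk formed a band from 44.9 down to 28.4 mean TPM, and Map3k7 and Ikbkg lay below it. In the order of the 10 mean levels, Ikbke lay above Tbk1 and Chuk above Map3k7 with no overlap between libraries and by more than either SD. In each of the other 7 neighbouring pairs the library ranges overlapped.

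Ikbke, which encodes IKK epsilon, had 232, 224 and 286 TPM in replicates 1, 2 and 3 (13.6% coefficient of variation, the SD over the mean, n = 3). It ranked 81st by mean TPM among all protein-coding genes, those of the mitochondrial genome included, and stood above 99.1% of the detected ones. The gene runs from 131254343 to 131279606 on chromosome 1 in mm10, and it alone supplied 48.8%, 43.7% and 51.2% of the summed TPM of the 10 members. The 3 other protein-coding genes with levels nearest to it, by Euclidean distance over log2(TPM + 1) in the 3 libraries, were Rrbp1 (distance 0.12), Clec2d (0.16) and Ctsa (0.26). With 3 libraries of 1 group this likeness is one of level only.

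Tbk1, the other kinase of this branch, had 39.8, 45.2 and 49.7 TPM in replicates 1, 2 and 3, and lies on chromosome 10 from 121546455 to 121586787. All of its libraries were below the lowest Ikbke library. The ratio of Ikbke to Tbk1 was 5.84, 4.94 and 5.74 in the 3 libraries, a log2 difference of 2.43 ± 0.13 (SD, n = 3). Ikbke was the higher in 3 of 3 libraries, and the exact two-sided sign-flip test gave p = 0.25, the smallest p that 3 libraries allow (0.375 after Benjamini-Hochberg adjustment over the 6 pairs compared). A p of 0.05 could therefore not be reached by any of these pairs.

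Azi2 and Tank, the TBK1 adaptor genes among the members, came next after Tbk1 in the order of mean levels. Azi2, which encodes NAP1, had 36.4, 41.6 and 48.0 TPM in replicates 1, 2 and 3 and lies on chromosome 9 from 118040499 to 118069794. Tank, named for its binding to TRAF proteins, had 36.9, 39.5 and 36.2 TPM and lies on chromosome 2 from 61578585 to 61654171. Tank had the lowest coefficient of variation of the 10 in TPM, 4.54%, whereas with expected counts scaled by TMM that was Ikbkb, with 6.35% against 7.48% for Tank. The log2 difference of Tank minus Azi2 was -0.15 ± 0.22 (SD, n = 3), with Tank higher in 1 of 3 libraries (exact sign-flip p = 0.5, adjusted 0.6). Replicate 3 set most of that difference, which was -0.03 without it.

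In TPM over all transcripts, the levels of the catalytic subunits of the classical IKK complex could not be told apart, but this depended on the measure. Ikbkb, which encodes IKK beta, the kinase that acts on the inhibitors in the classical pathway, had 27.0, 31.8 and 27.1 TPM in replicates 1, 2 and 3 (chromosome 8, 22659212 to 22706589). Chuk, which encodes IKK alpha, also the kinase of the noncanonical pathway, had 27.7, 32.1 and 25.3 TPM (chromosome 19, 44073335 to 44107480). Both were highest in replicate 2, and their ranges overlapped almost whole. The log2 difference of Ikbkb minus Chuk was 0.02 ± 0.07 (SD, n = 3; exact sign-flip p = 1.0), and it took the other sign with kallisto-format TPM, from a second deposited quantification in the layout kallisto writes (-0.34), and with coding transcripts only (-0.47). Ikbke exceeded Ikbkb 8.62, 7.02 and 10.5 times in replicates 1, 2 and 3, a log2 difference of 3.06 ± 0.29 (exact sign-flip p = 0.25, adjusted 0.375).

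Ikbkg, which encodes NEMO, the subunit that binds ubiquitin chains, was the lowest member. It had 6.87, 9.40 and 10.2 TPM in replicates 1, 2 and 3, from 1168, 1136 and 1160 expected counts, and lies on the X chromosome from 74393290 to 74453854. Its level was above that of 50.8% of detected protein-coding genes, near the middle of their range. Each Ikbkg library was below each library of Ikbkb and Chuk. The coefficient of variation was 19.9% for TPM but 8.48% for expected counts scaled for depth by TMM. The annotation gives this gene 18 transcripts of unequal length, the most of the 10, and whether they bear on that gap was not tested.

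Upstream of IKK, the kinase gene Map3k7 had a lower level than its partner gene Tab2. Map3k7, which encodes TAK1, had 11.4, 12.1 and 10.2 TPM in replicates 1, 2 and 3 (chromosome 4, 31964097 to 32023467). Its mean level was above that of 59.6% of detected protein-coding genes. Tab2, which encodes a partner that ties TAK1 to ubiquitin chains, had 27.1, 39.1 and 27.7 TPM (chromosome 10, 7905653 to 7956230). Every Tab2 library was above every Map3k7 library, and the log2 difference was 1.38 ± 0.22 (SD, n = 3; higher in 3 of 3, exact sign-flip p = 0.25, adjusted 0.375). It was 0.70 with kallisto-format TPM. The other TAB genes, Tab1 and Tab3, were below Map3k7 in every library, with means of 7.07 and 3.18 TPM. Tab2 had the highest coefficient of variation of the 10 in TPM as deposited, 21.6%, with replicate 2 high. After rescaling over nuclear protein-coding genes that was Ikbkg, with 18.0% against 16.0% for Tab2, and with TMM it was Ikbke, with 17.3% against 12.5%.

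Map3k8, which encodes TPL2, had 30.2, 37.2 and 37.4 TPM in replicates 1, 2 and 3 (chromosome 18, 4331327 to 4353015). The lowest of these libraries was still above the highest of Map3k7. Map3k8 minus Map3k7 was 1.55 ± 0.22 on the log2 scale (SD, n = 3; exact sign-flip p = 0.25, adjusted 0.375) and 0.97 with kallisto-format TPM. Nfkb1, whose p105 product binds TPL2 and holds it inactive, had 33.3, 36.5 and 37.6 TPM, a range that overlaps that of Map3k8.

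**Figure D1:**
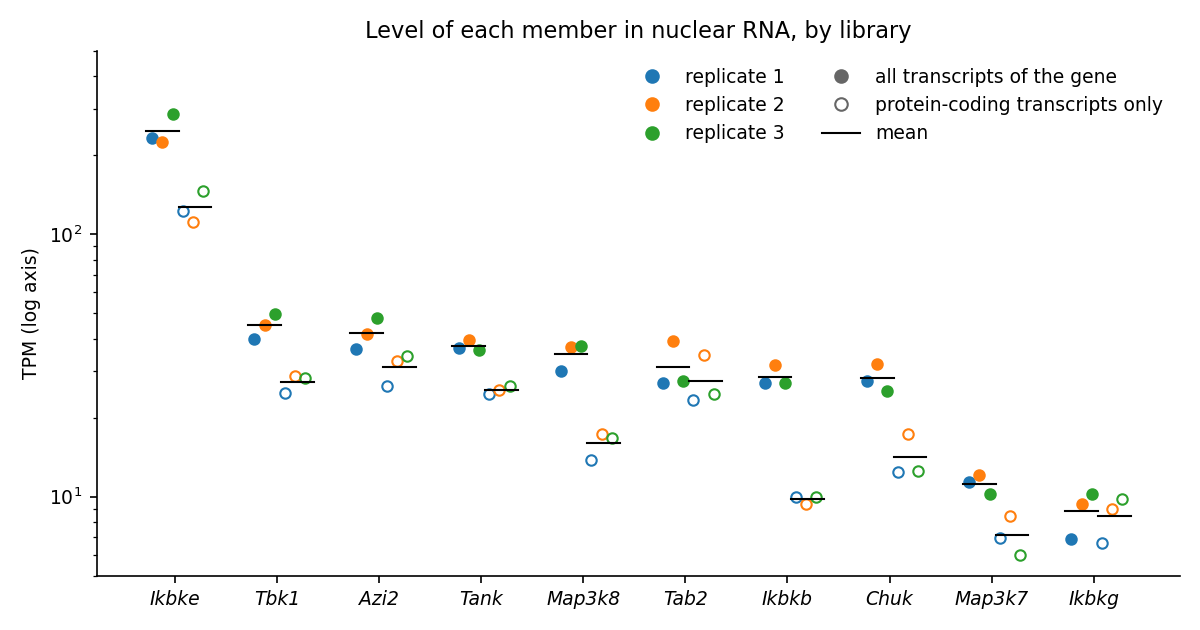
TPM (log axis) of each member in the 3 libraries, with all transcripts of the gene (filled points) and with its protein-coding transcripts only (open points); lines are means. Ikbke sits alone near 247 TPM and stays highest at 127 TPM over coding transcripts, while Ikbkb shows a wide gap, 28.6 against 9.76 TPM.

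**Figure D2:**
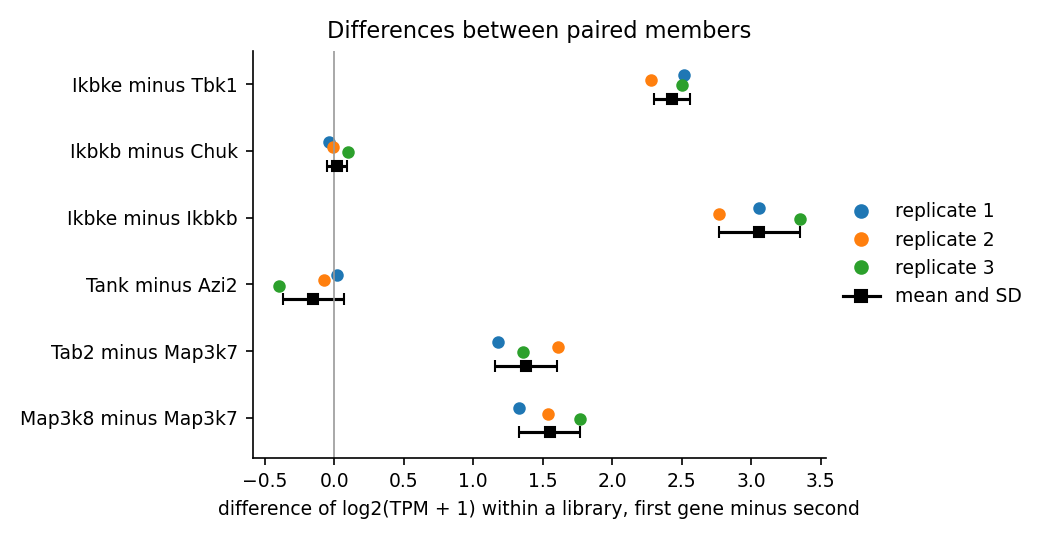
Difference of log2(TPM + 1) between paired members within each library, first gene minus second; circles are libraries, squares and bars are the mean and SD over 3 libraries. The 4 differences led by Ikbke, Tab2 and Map3k8 are above 0 in 3 of 3 libraries, and those of Ikbkb minus Chuk and Tank minus Azi2 lie on both sides of 0.

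The wider set of genes around these kinases was present throughout. Of 17 further genes of the complexes and their nearest regulators, 17 were detected, against 42.8% of all protein-coding genes. This list was chosen with earlier results of these data known. Hsp90ab1, the chaperone of IKK, was highest at 116 ± 24.4 TPM (SD, n = 3). Its co-chaperone gene Cdc37, which loads kinases onto the chaperone, had 20.5 ± 1.57 TPM.

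Among the ubiquitin enzymes, which make the chains that TAB2 and NEMO bind, Ube2n had 36.1 ± 10.1 TPM and its partner Ube2v1 19.1 ± 2.56 TPM (SD, n = 3). The linear chain assembly genes Rbck1, Sharpin and Rnf31 had 29.4 ± 4.10, 24.3 ± 1.05 and 22.7 ± 7.07 TPM. The ligase genes Traf6 and Traf3, which act nearer the receptor, were lower, with 6.47 ± 1.08 and 6.33 ± 0.758 TPM. Every library of Rbck1, Sharpin and Rnf31 was above every library of Traf6 and Traf3.

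The remaining partners covered a wide range. Irf3, the substrate of TBK1, had 30.5 ± 1.97 TPM (SD, n = 3), and Tnip2, which encodes ABIN2, a partner of TPL2 and p105, had 16.1 ± 1.90 TPM. Optn, an adaptor of TBK1 at ubiquitin, had 6.46, 13.5 and 12.3 TPM in replicates 1, 2 and 3, with replicate 1 low. Map3k14, which encodes NIK, the kinase that activates IKK alpha in the noncanonical pathway, had 9.11 ± 0.248 TPM. The lower members of the adaptor families were Tab1 (7.07 ± 0.619 TPM), Tbkbp1, which encodes the TBK1 adaptor SINTBAD (5.50 ± 0.616 TPM), and Tab3 (3.18 ± 0.650 TPM). Tab2 thus had the highest level of the TAB genes, and Tank and Azi2 were above Tbkbp1, with no overlap between libraries in any of these comparisons.

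The transcripts behind these gene levels differed strongly between members. The annotation gives the 10 genes 94 transcripts, and 8 of the 10 have a retained-intron transcript. These held 51.1% ± 1.64 of the TPM of Map3k8, 50.5% ± 4.49 of Chuk, 48.8% ± 1.53 of Ikbke and 45.4% ± 0.657 of Ikbkb (SD, n = 3). They held 33.4%, 31.9% and 39.5% of the TPM of Tbk1 in replicates 1, 2 and 3, a mean of 35.0%. The shares of Azi2 (17.8% ± 3.17), Tab2 (12.0% ± 1.57) and Ikbkg (4.12% ± 0.562) were lower. The libraries of Azi2, Tab2 and Ikbkg were all below 24.0%, the median of the 5980 protein-coding genes that were detected and have such a transcript, and those of the other 5 were all above it. The median of the 8 members was 40.2% ± 1.79. Reads from an intron still awaiting removal and reads from a stable transcript that keeps it cannot be told apart in nuclear RNA.

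**Figure D3:**
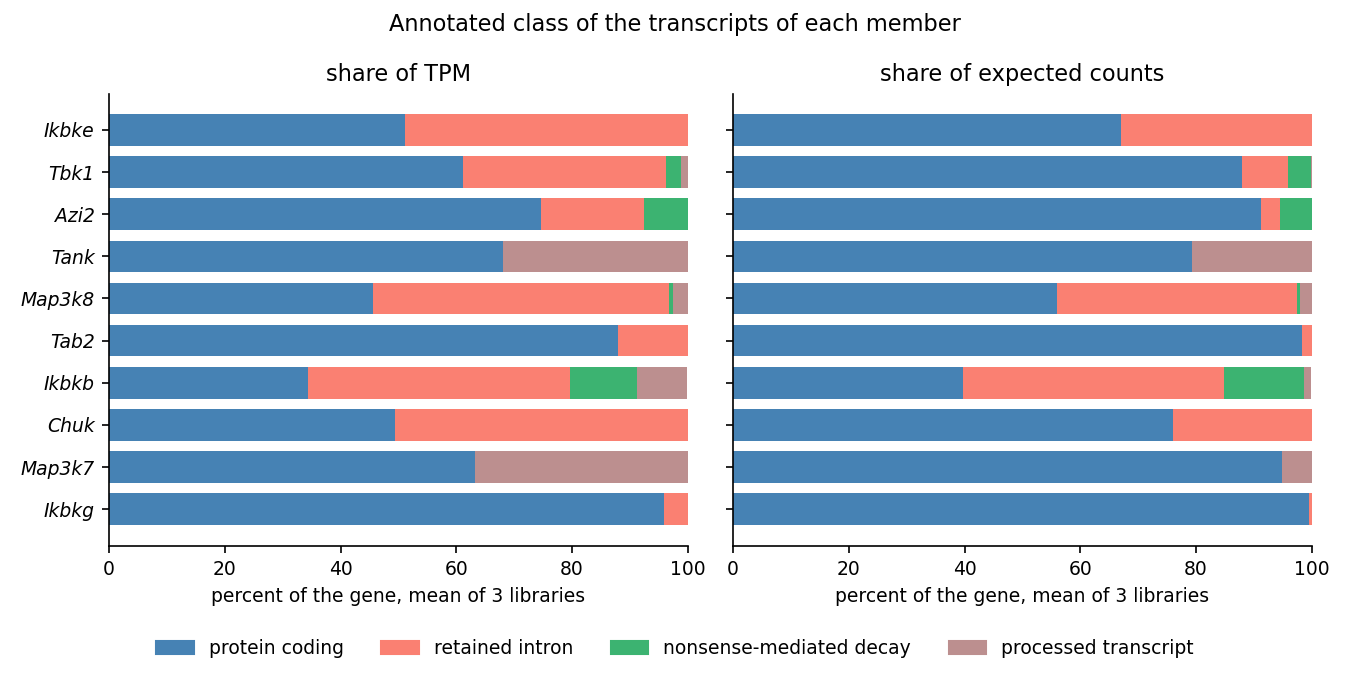
Share of each member's TPM (left) and expected counts (right) held by transcripts of each annotated class, as the mean of 3 libraries in percent. Retained-intron transcripts of Tbk1 take 35.0% of TPM but 7.93% of counts, whereas in Ikbkb they take 45.4% of TPM and 45.0% of counts.

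The retained-intron shares depended on the unit, and how much they did so varied with the length of the transcripts. TPM divides by length, so a short transcript takes a larger part of TPM than of counts, and 19 of the 28 retained-intron transcripts are under 1000 bases long. In Ikbkb their median length is 2423 bases, and their share was 45.0% of expected counts against 45.4% of TPM. In Map3k8, with a median of 1350 bases, it was 41.5% of counts.

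In the members whose retained-intron transcripts have a median length under 1000 bases, the share of counts was lower than that of TPM. It was 32.9% in Ikbke, 23.9% in Chuk, 7.93% in Tbk1, 3.18% in Azi2, 1.59% in Tab2 and 0.439% in Ikbkg. In Ikbke a long transcript of this class, Ikbke-206 with 5856 bases, alone held 20.9% of counts. Over the 8 members the median was 15.9% of counts, against 13.5% over the same 5980 genes. Chuk, Ikbke, Ikbkb and Map3k8 lay above that gene median, and Tbk1, which was above it by TPM, lay below it by counts. In kallisto-format TPM the median of the members was 43.0%, against 28.4% over the genes, with Chuk highest at 69.1%.

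**Figure D4:**
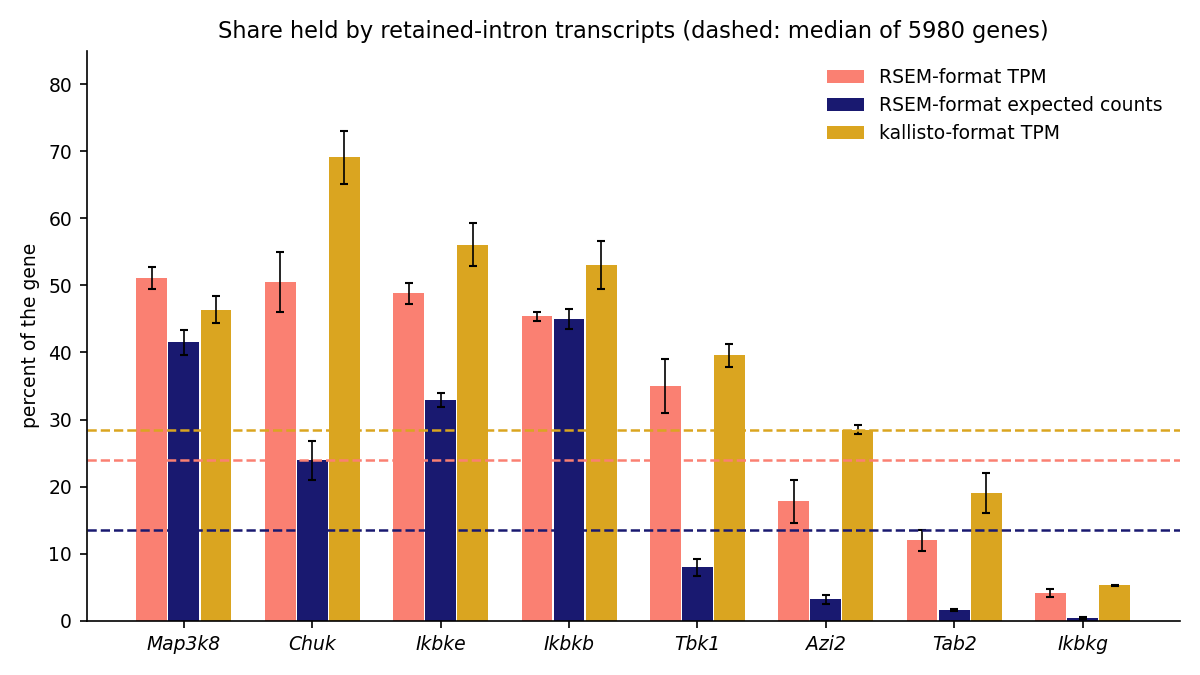
Share of each gene held by retained-intron transcripts under 3 measures, as the mean with SD over 3 libraries, with dashed lines at the median of 5980 genes (24.0% of TPM, 13.5% of counts, 28.4% of kallisto-format TPM). Map3k8, Chuk, Ikbke and Ikbkb are above the matching line under all 3 measures, and Tab2 and Ikbkg are below it.

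In Ikbke 4 retained-intron transcripts shared the signal. Ikbke-205 had 36.0, 43.9 and 45.3 TPM and Ikbke-207 33.9, 32.4 and 49.6 TPM in replicates 1, 2 and 3. Both are under 1000 bases long and start inside the intron whose acceptor is shown above. Ikbke-203 had 21.7 ± 4.31 TPM (SD, n = 3).

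Ikbke-206, of 5856 bases, reads introns 17, 18 and 19 whole and had 18.5 ± 0.491 TPM, with 3720, 2698 and 3439 expected counts. It held 7.57% of the gene's TPM but 20.9% of its counts, the most of the 4 by counts. The spliced coding transcript Ikbke-201 held 37.1% ± 3.11 of TPM and 55.3% of counts. Antisense genes overlap the region: Gm28914 (6.99 ± 0.387 TPM) covers 9.20% of the exon bases of Ikbke-206, and Gm28913 (41.7 ± 3.86 TPM) covers 30.8% of those of Ikbke-206, 60.4% of those of Ikbke-203 and 27.4% of those of Ikbke-207. Ikbke-205 does not overlap them. No source used here says whether counting used strand, so reads of Ikbke and of these antisense genes may be mixed. The antisense genes held 77 to 265 expected counts per library, against 12045 to 17910 for Ikbke.

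**Figure D5:**
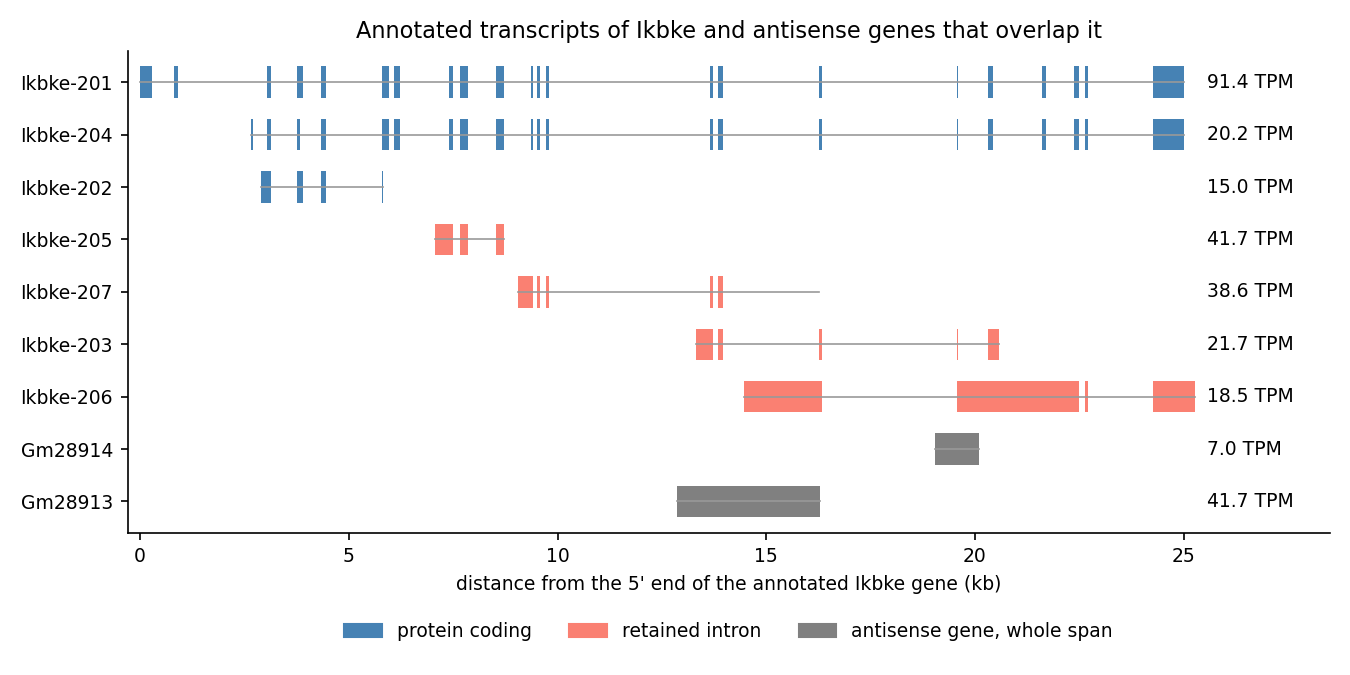
Exons of the annotated Ikbke transcripts and the spans of 2 antisense genes, by distance in kb from the 5′ end of the gene, with the mean TPM over 3 libraries at the right. Ikbke-201 has 91.4 TPM, and the retained-intron transcripts each begin at a different point along it, with levels from 18.5 TPM for Ikbke-206 to 41.7 TPM for Ikbke-205.

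In Ikbkb 7 retained-intron transcripts were annotated. The largest share among them, 11.7% ± 1.76 of TPM (SD, n = 3) and 19.3% of counts, belonged to Ikbkb-211, which reads introns 12 and 13 whole. The coding transcript Ikbkb-201 held 27.6% ± 4.19 of TPM, and all coding transcripts together 34.3% ± 4.34, the lowest coding share of TPM among the 10 members. In kallisto-format TPM the lowest was that of Chuk, with 30.9% against 32.8% for Ikbkb.

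In Chuk the transcript that enters intron 16 from the donor, Chuk-207, held 17.3% ± 1.90 of TPM and 17.3% of counts, and Chuk-205, which enters it from the acceptor, held 13.7% ± 3.44 of TPM and 2.19% of counts (SD, n = 3). In Tbk1 the coding transcript Tbk1-201 held 58.8% ± 3.22 of TPM and 87.7% of counts. In Map3k8 a single retained-intron transcript, Map3k8-203, held 41.1% ± 3.54 of TPM, close to the 45.7% ± 0.860 of Map3k8-201, the only coding transcript.

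The other transcripts that held at least 10% of a gene's RSEM-format TPM, the TPM used wherever kallisto is not named, are given here by gene. In Tab2 the coding transcript Tab2-204 held 77.7% ± 1.14 of TPM (SD, n = 3). The TPM of Ikbkg was divided among several coding transcripts, with 26.0% ± 4.63 for Ikbkg-202, 21.5% for Ikbkg-203, 19.5% ± 8.57 for Ikbkg-206 and 15.7% ± 2.80 for Ikbkg-207. Ikbkg-206 was high in replicate 2, at 29.2%, and held 2.60% in kallisto-format TPM. Tank was divided in a like way, with 29.2% ± 2.67 for Tank-202, 22.2% ± 6.05 for Tank-205 and 13.2% ± 1.70 for Tank-201 among coding transcripts, and 12.4% ± 3.25 for Tank-211 and 11.9% ± 1.82 for Tank-207 among processed ones. The processed transcripts Map3k7-205 and Map3k7-208 held 17.2% ± 0.553 and 13.2% ± 5.88 of Map3k7, and the coding Azi2-201 and Azi2-207 held 48.3% ± 4.10 and 17.9% ± 1.07 of Azi2. The coding Map3k7-202 and Map3k7-201 held 37.5% ± 6.85 and 25.7% ± 5.29 of Map3k7, and the coding Chuk-201 held 40.8% ± 3.23 of Chuk. The retained-intron transcripts Tbk1-205 and Tbk1-207 held 12.0% ± 4.93 and 15.7% ± 2.98 of Tbk1, and Chuk-208 held 11.2% ± 3.41 of Chuk.

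A further set of transcripts reached 10% only in kallisto-format TPM. Among coding transcripts these were Ikbke-202 (14.1% of kallisto-format TPM, 5.93% of RSEM-format TPM), Tbk1-206 (10.3% and 2.32%), Azi2-202 (12.7% and 1.44%), Ikbkg-210 (13.4% and 1.53%) and Ikbkg-215 (12.8% and 0.969%). Among retained-intron transcripts they were Azi2-206 (10.2% and 9.40%), Azi2-203 (11.6% and 6.03%), Map3k8-204 (12.3% and 9.99%), Tab2-203 (13.6% and 7.57%), Ikbkb-209 (10.2% and 6.65%) and Chuk-203 (18.0% and 5.78%). Among processed transcripts they were Tank-206 (12.4% and 4.97%), Map3k8-202 (10.5% and 2.56%) and Map3k7-207 (19.6% and 3.26%).

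Restricting each gene to its coding transcripts lowered all levels and changed their order. Ikbke remained highest, with 123, 111 and 146 TPM in replicates 1, 2 and 3. Azi2 (31.3 ± 4.26), Tab2 (27.6 ± 6.17), Tbk1 (27.4 ± 2.16) and Tank (25.5 ± 0.845) followed (TPM, SD, n = 3). Map3k8 came to 16.0 ± 1.91 TPM, Chuk to 14.1 ± 2.78, Ikbkb to 9.76 ± 0.363, Ikbkg to 8.47 ± 1.64 and Map3k7 to 7.14 ± 1.24 TPM. On this measure Ikbkb was still above Ikbkg within each library, but their ranges over the 3 libraries overlapped, which they had not with all transcripts.

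Transcripts annotated as targets of nonsense-mediated decay, the pathway that destroys mRNAs with early stop codons, were found in 4 members. Their share of TPM was 7.58% ± 1.00 in Azi2 and 2.73% ± 0.847 in Tbk1 (SD, n = 3). In Map3k8 it was 0%, 1.88% and 0% in replicates 1, 2 and 3, so that it rests on replicate 2, and averaged 4.02% in kallisto-format TPM. In Ikbkb it was 7.45%, 19.8% and 7.34% in replicates 1, 2 and 3, and 7.40% without replicate 2. Ikbkb-203, a transcript of this class, had 346 expected counts in replicate 2 and 0 in replicates 1 and 3. The median of the 4 members was 4.91% ± 0.543 of TPM, against 3.78% over the 2958 protein-coding genes that were detected and have such a transcript. By expected counts it was 4.77%, against 1.74%, and by kallisto-format TPM 5.25%, against 7.82%, so the side on which the members lay depended on the measure.

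Tank and Map3k7 have no retained-intron transcript but hold noncoding transcripts of the processed class. In Tank these held 31.9% ± 4.26 of TPM and 20.7% of counts (SD, n = 3). In Map3k7 they held 36.8% ± 5.87 of TPM but 5.22% of counts, their median length being 612 bases against 5580 for its coding transcripts.

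Some coding transcripts of these genes differ by a short coding stretch, and those stretches are printed because they decide which protein is made. These comparisons were chosen after their values were seen. In Map3k7 exon 12 of Map3k7-201 (chr4:31994874-31994954, plus strand, 81 bases) is absent from Map3k7-202, leaving 579 of 606 codons with the frame kept. In Ikbke the last 72 bases of exon 4 of Ikbke-201 (chr1:131275707-131275778, minus strand) are spliced out in Ikbke-204, leaving 693 of 717 codons. In Chuk the last 17 bases of exon 19 of Chuk-201 (chr19:44077246-44077262, minus strand) are spliced out in Chuk-202. That shifts the frame, and the reading frame of Chuk-202 has 719 codons in all, against 745 in Chuk-201.
Map3k7-201, exon 12: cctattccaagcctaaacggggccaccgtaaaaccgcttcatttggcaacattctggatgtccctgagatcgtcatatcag
Ikbke-201, end of exon 4: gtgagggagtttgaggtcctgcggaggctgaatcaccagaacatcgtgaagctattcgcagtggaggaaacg
Chuk-201, end of exon 19: gtaactcctcaagatgg

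The Map3k7 transcript with exon 12 held 50.5%, 37.5% and 34.3% of the TPM of Map3k7-201 and Map3k7-202 together in replicates 1, 2 and 3, and 77.6%, 42.3% and 58.1% by kallisto-format TPM. The 2 sets of values thus put different transcripts ahead in replicate 3. Ikbke-204, with the shortened exon 4, held 12.1%, 25.0% and 17.4% of the TPM of Ikbke-201 and Ikbke-204 together, with replicate 2 high and replicate 1 low, and 24.4%, 31.7% and 27.5% by kallisto-format TPM. Chuk-202 held 17.4%, 20.7% and 14.0% of the TPM of Chuk-201 and Chuk-202, and 17.0% ± 2.06 by kallisto-format TPM (SD, n = 3).

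Transcripts that end early were seen in both adaptor genes. Azi2-207, which ends within an extended exon 7 after 283 codons in place of 405, held 27.1% ± 2.26 of the TPM of Azi2-201 and Azi2-207 together (SD, n = 3). In Tank the transcript Tank-202 ends within an extended exon 7, and it also lacks the 53 coding bases in exon 1 of Tank-205. Tank-202 has 360 codons, against 447 in Tank-205, and the differences named here do not account for the whole of that gap. It held 46.9%, 46.3% and 36.0% of the coding TPM of Tank in replicates 1, 2 and 3, with replicate 3 low.

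The members varied little between the libraries. Their median coefficient of variation was 12.0% in TPM, against 16.8% over the 9876 protein-coding genes whose mean reached 1 TPM and 15.0% over the 4563 of them with means between 8.84 and 247 TPM, the range of the members. In TPM as deposited, Tab2 and Ikbkg were above the median of the 9876 genes, and the other 8 members were below it. Which members were above it changed with the scale. With TMM, against a median of 13.6%, Ikbke was above at 17.3%, and Tab2 (12.5%) and Ikbkg (8.48%) were below. After rescaling over nuclear protein-coding genes, Ikbke (15.9%), Tab2 (16.0%) and Ikbkg (18.0%) were all above the median of 15.1%. The counting error of the expected counts was at most 2.98% for any member, below the coefficient of variation of each of the 10.

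Several members overlap other genes on the opposite strand. Ikbkg shares its span with G6pdx (24.8 ± 2.83 TPM, SD, n = 3), Azi2 with Cmc1 (5.11 ± 0.849 TPM), Ikbkb with the antisense gene Gm15346 (0.160 ± 0.0557 TPM) and Map3k7 with the pseudogene Gm11926 (1.03 ± 0.245 TPM) and with Gm26254, an snRNA gene listed at 0. The level of G6pdx was above that of Ikbkg in every library.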

How the data were processed

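The members and gene lists were chosen with earlier results of these data known. Per the file headers and the notes beside them, the authors derived the gene and transcript tables, 1 set per library, from reads aligned to the transcriptome (mm10, GENCODE M21). They have the columns RSEM writes, and no source used here names the tool or its version. The deposited expected counts are the authors' unnormalised estimated counts. The deposited TPM, also given as a posterior mean, had been scaled by the authors to the same sum in every library. FPKM and each isoform's percent of its gene were deposited by the authors and not used for any value here. A second transcript table, with the columns kallisto writes and called kallisto-format, holds deposited estimated counts and TPM, which were summed per gene.

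Differences between genes were taken within a library as log2(TPM + 1) and set against 0 by exact two-sided flipping of signs. Isoform shares are a class's part of the TPM or expected counts of its gene, with classes and coordinates from GENCODE M21. Sequences came from the GENCODE M21 transcripts. Expected counts were rounded before they were scaled by TMM (edgeR 4.0.16) or DESeq2 1.42.0 size factors, both only for the spread between libraries and both tested on simulated data. The detected genes had a TPM that reached 1 in each library. Intervals between libraries are SDs, and counting error covers counting alone. The genes named are all members, all 17 further pathway genes, transcripts with at least 10% of a gene's TPM in either table, and the 3 genes nearest to Ikbke in level. The remaining transcripts and the overlapping genes were named after their values were seen. Software was Python 3.11.15 with pandas 2.3.3, numpy 2.4.6 and matplotlib 3.10.9, and R 4.3.3.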

Additional observations from a re-analysis of the deposited data

How the results depend on the processing

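The labels give 1 group. Libraries could not be paired between conditions because there is no other group, and the pairs compared here are genes within a library. The sign of Ikbkb minus Chuk (0.02) turned with kallisto-format TPM (-0.34) and with coding transcripts only (-0.47), and leaving out 1 library each gave -0.02 to 0.04. The other 5 pair differences kept their sign under all alternatives run (pseudocount 0.1, posterior mean TPM, kallisto-format TPM, coding transcripts, rescaled TPM, each library left out). The median level of the members was 33.0 TPM as deposited and 157 after rescaling TPM over nuclear protein-coding genes, which took 20.0%, 22.2% and 20.6% of TPM in replicates 1, 2 and 3. By construction that scaling raises all members alike within a library. The median retained-intron share of 40.2% became 43.0% with kallisto-format TPM and 15.9% with expected counts. All 10 members were detected at a TPM of 5 and, as a separate check, in kallisto-format TPM. The share of all protein-coding genes detected was taken only at a TPM of 1 in RSEM-format values, so these counts have no background beside them. Nuclear protein-coding genes took 8.47%, 14.7% and 2.92% of kallisto-format TPM in replicates 1, 2 and 3. That is a smaller part than of RSEM-format TPM in each library. The median coefficient of variation of the members was 9.72% after rescaling, against 15.1% over protein-coding genes with a mean of at least 1 TPM, 9.60% against 13.6% with TMM and 9.81% against 13.6% with DESeq2 size factors. In TPM as deposited it was 12.0%, against 22.5% over the 15255 protein-coding genes with any count. After rescaling, kallisto-format values exceeded RSEM-format values 1.43 times for Map3k7 and 1.38 times for Ikbke, and the cause was not tested. Depth left a counting error of at most 2.98% in any member, and the number of libraries, 3, limits every test.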
